A study of Homo sapiens with 12 samples.

Results

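The genes described here are 215 protein-coding genes of the distal long arm of human chromosome 3. They were taken from the 428 protein-coding genes that start at or beyond 120 Mb on that chromosome in GRCh38, by a mean of at least 10 CPM, the count scaled to library size, over the 12 libraries, which left 239, and 24 of these 239 were left out by name. Each deposited table held 40649 genes, of which 19268 were tested. The region was chosen by its measured level: its genes were picked out because they stood lower together in cells given hydrogen peroxide (H2O2) than in untreated cells. The comparison of those cells is therefore given as a description without a test, and the question put to the data is which genes followed the lower level and which escaped it.

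The cells were HK-2, an established and immortalised line of human proximal tubule epithelium. The series asks how YAP1 bears on senescence of tubular cells under lasting oxidative stress. The 4 libraries named shYAP1_H2O2 carried a short hairpin RNA against YAP1, the co-activator at the end of the Hippo pathway, and received 150 µM H2O2 for 48 h. The 4 libraries named shNC_H2O2 carried a control hairpin and received the same H2O2. The 4 libraries named shNC carried the control hairpin and received no H2O2. All 3 groups therefore carried a hairpin, and 1 hairpin genotype against YAP1 was used. Untreated cells carrying the hairpin against YAP1 were not analysed here. Whether replicate libraries stem from separate cultures is not stated in the labels, and p-values cover the spread among the sequenced libraries only. In bulk RNA, fewer cells that carry a transcript and less of it per cell cannot be told apart.

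Distal 3q is known as a stretch that is often gained in squamous carcinomas, where PIK3CA, PRKCI and SOX2 are among its best studied genes. Its genes have little in common beyond their place: they encode signalling kinases, translation factors, collagen-modifying enzymes, endosomal proteins and receptors. Neighbouring genes on a chromosome are usually regulated one by one or in small clusters.

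Total counts lay between 30789997 and 46582873 per library, so that 3 counts, taken as the floor of detection, equalled 0.0644 to 0.0974 CPM. The share of counts on mitochondrial genes was 4.535% to 5.638% in 10 libraries, 11.34% in shYAP1_H2O2 replicate 3 and 13.86% in shNC replicate 4. These 2 libraries also stood apart from their groups for single members below. YAP1 was measured at 110.9 to 135.9 CPM in shYAP1_H2O2 (128 ± 11.7, SD, n = 4), 151.1 to 163.5 CPM in shNC_H2O2 (156 ± 5.19) and 123.7 to 140.5 CPM in shNC (133 ± 7.25). Cells with the YAP1 hairpin thus stood below the H2O2-treated control hairpin and overlapped the untreated one. Of 15 markers of kidney epithelium, 11 reached 1 CPM in shYAP1_H2O2, 10 in shNC_H2O2 and 11 in shNC, with KRT8, KRT18, PAX8 and CDH6 high and the apical tubule genes LRP2, CUBN, ANPEP and AQP1 under 0.3 CPM on average. Summed fibroblast markers were 143 to 172 CPM in shYAP1_H2O2, 236 to 255 CPM in shNC_H2O2 and 110 to 113 CPM in shNC, mostly LUM, with COL1A2 under 0.1 CPM in every library. Summed endothelial and leukocyte markers stayed at or under 0.435 CPM. The part of these differences in the level of the 3q genes was not tested.

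The 215 genes stood lower as a body in shNC_H2O2, and stood near the untreated level in shYAP1_H2O2. For each gene and library, log2 CPM was set against the mean of the 4 shNC libraries, and the median over the genes was taken. That median was 0.03, 0.01, -0.06 and 0.03 in shYAP1_H2O2, -0.61, -0.61, -0.57 and -0.56 in shNC_H2O2, and -0.02, -0.03, -0.02 and 0.05 in shNC. The 4 shNC_H2O2 libraries lay close together and far below the other 8, which overlapped. Together the 215 genes took 21391 ± 139 CPM in shYAP1_H2O2, 14036 ± 168 CPM in shNC_H2O2 and 21814 ± 978 CPM in shNC (SD, n = 4 each). The same median over the other 9501 protein-coding genes of at least 10 CPM lay close to 0 in every library.

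**Figure D1:**
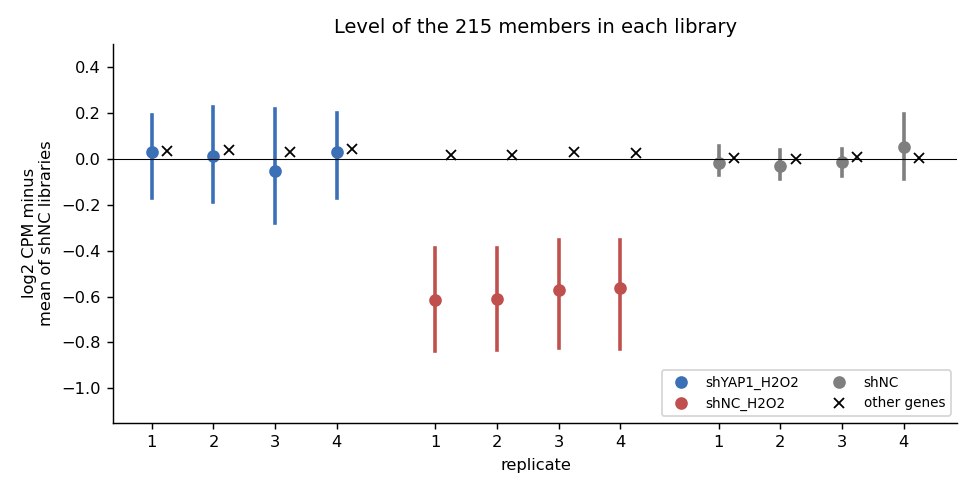
Median (circles) and middle 50% (bars) of log2 CPM minus the shNC mean over the 215 distal 3q genes in each library, with the median of the other protein-coding genes of at least 10 CPM as crosses. The 4 shNC_H2O2 libraries sit between -0.61 and -0.56, below all 8 libraries of shYAP1_H2O2 and shNC.

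In shNC_H2O2 over shNC the median log2 fold change of the 215 genes was -0.59, a ratio of 0.663, with the middle 50% between -0.84 and -0.36 and the whole range from -3.25 to 1.69. Values were below 0 for 194 of the 215 (90.2%), against 48.1% of the other protein-coding genes, whose median was 0.02. All 4 shNC_H2O2 libraries lay below all 4 shNC libraries for 178 of the 215 genes and above them for 12, while the groups overlapped for 25. Over all 19268 genes tested, 22.9% lay wholly below and 25.2% wholly above, and over the other protein-coding genes of at least 10 CPM 26.7% and 31.1%. The genes were chosen on this contrast, so nothing is read from these counts. In shYAP1_H2O2 over shNC_H2O2, which uses the same shNC_H2O2 libraries, the median was 0.61, a ratio of 1.53, and 199 of the 215 values were above 0. With shYAP1_H2O2 replicate 3 and shNC replicate 4 left out, the median was -0.58 in shNC_H2O2 over shNC, with 195 values below 0.

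The shift was one of the whole distribution, and its width was that of other genes. A gene was taken to follow the block where its log2 fold change in shNC_H2O2 over shNC lay within 0.3 of the median of -0.59. By that distance 122 genes followed (56.7%), 47 stood further below (21.9%) and 46 escaped upwards (21.4%). The other protein-coding genes were split in the same way around their own median, with 56.1% within 0.3, 21.6% below and 22.4% above. Of the 46 genes that escaped, 21 had values above 0, and for 12 of these all 4 shNC_H2O2 libraries lay above all 4 shNC libraries. The lowest of the 46 stood at -0.29, so escape covers a smaller fall as well as none. For some of the 46, such as PPP1R2 and PCYT1A, all 4 shNC_H2O2 libraries still lay below all 4 shNC libraries.

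**Figure D2:**
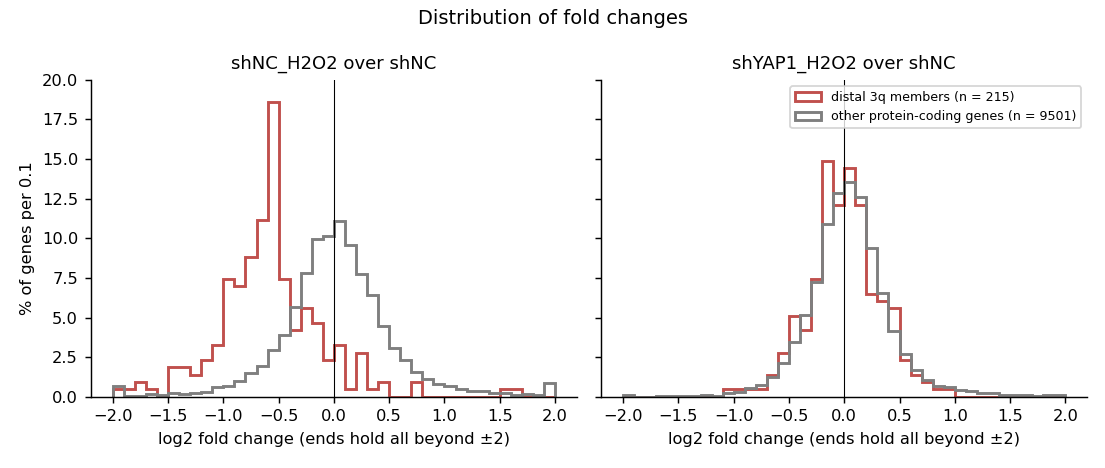
Share of genes per 0.1 of log2 fold change for the 215 distal 3q genes and 9501 other protein-coding genes, in shNC_H2O2 over shNC (left) and shYAP1_H2O2 over shNC (right). The 3q genes are displaced as a whole in the left panel, with a median of -0.59 against 0.02, and lie over the other genes in the right panel, with medians of 0.01 and 0.04.

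The lower level in shNC_H2O2 ran along the whole interval. In steps of 10 Mb from 120 to 200 Mb the median log2 fold changes in shNC_H2O2 over shNC were -0.73 (50 genes), -0.64 (32), -0.69 (23), -0.56 (19), -0.42 (11), -0.53 (20), -0.57 (33) and -0.45 (27). The share that escaped was 16.0% in the first step and 37.0% in the last, without a steady rise between them. It was 13.0% from 140 to 150 Mb, 36.4% from 160 to 170 Mb and 18.2% from 180 to 190 Mb. Escape was counted from the median of all 215 genes, while the last step's own median was -0.45. On the same chromosome before 120 Mb, the medians of protein-coding genes of at least 10 CPM lay between -0.05 and 0.06 in the 6 steps up to 60 Mb, at -0.28, -0.10 and -0.18 in the 3 steps from 60 to 90 Mb (16, 7 and 5 genes), and at -0.74, -0.54 and -0.60 in the 3 steps from 90 to 120 Mb. Medians like those of the 215 genes were thus also found before the 120 Mb bound, which was set by the rule. The 24 genes left out by name, all of the same interval, had a median of -0.59 and ranged from -5.7 to 0.695. Other long chromosome stretches also stood apart in the same contrast, among them proximal 1q (144 to 180 Mb) with a median of -0.55 over 213 genes and distal 21q (from 25 Mb) with 0.49 over 89 genes. DNA was not analysed here and the labels give no karyotype, so a different chromosome content of the cultures and a response to H2O2 cannot be told apart in these values. In shYAP1_H2O2 over shNC the medians of the 215 genes, the 24 left out by name, chromosome 3 before 120 Mb, proximal 1q and distal 21q lay between 0.01 and 0.06, and those of the steps of 10 Mb from 120 Mb between -0.13 and 0.14.

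**Figure D3:**
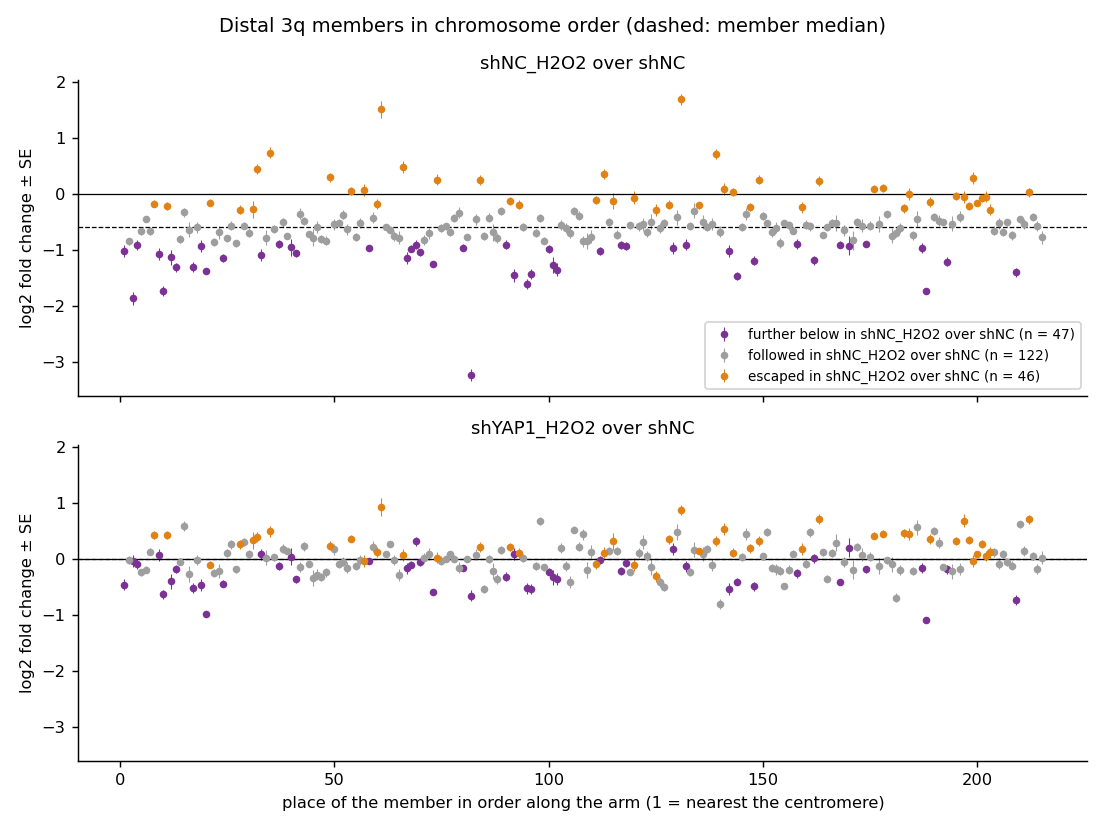
Log2 fold change ± SE of each of the 215 genes in order along the arm, in shNC_H2O2 over shNC (top) and shYAP1_H2O2 over shNC (bottom), coloured by whether the gene followed, stood further below or escaped in the top panel. In the top panel most points lie along the dashed median of -0.59 from end to end, and in the bottom panel they lie along 0.01.

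Of the 46 escaped genes, 13 had an escaped neighbour among the 215, and of the 47 genes further below, 23 had a neighbour that also stood further below. Neighbours are the next of the 215 in order, at any distance. Escaped genes were 21.4% of the 215 and genes further below 21.9%, so some neighbours of like class arise in any order. The counts for a random order were not computed, and no clustering is read from these. The longest run of escaped genes was of 7, ACAP2, PPP1R2, TNK2, PCYT1A, UBXN7, RNF168 and WDR53, between positions 195274736 and 196568674. Of these, PPP1R2, PCYT1A and WDR53 still had all 4 shNC_H2O2 libraries below all 4 shNC libraries. The longest run of genes further below was of 4, PPP2R3A, MSL2, PCCB and STAG1, between 135965673 and 136752403, and PCCB and STAG1 share exon sequence, so their reads may be divided between them. TM4SF1 and TM4SF18, paralogs that lie side by side, and PARP9 and DTX3L, whose products bind each other and whose genes lie head to head, also stood further below together.

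The median log2 fold change in shNC_H2O2 over shNC was -0.51 for the 49 genes between 10 and 30 CPM, -0.58 for the 109 between 30 and 100 CPM and -0.68 for the 57 above. The other protein-coding genes in the same ranges had medians of 0.07, 0.03 and -0.07, which differed with level in the same direction. Escaped genes were 16 of the 49, 21 of the 109 and 9 of the 57. Escaped genes had a median mean level of 39.6 CPM and a median exon length of 7953 bases, followers 53.4 CPM and 5988.5 bases, and genes further below 62.4 CPM and 5487 bases. At the bound of 10 CPM, HGD and NEK11 were just inside with means of 10.03 and 10.11 CPM over the 12 libraries, and CLCN2 and WDR5B just outside with 9.46 and 9.727 CPM.

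Genes close to the median show what the block looked like in single libraries. Positions in brackets are those of GENCODE 29 on chromosome 3 of GRCh38. U2SURP (ENSG00000163714, 142964497 to 143060546 on the plus strand), which encodes a protein bound to the U2 small nuclear ribonucleoprotein of the spliceosome, had 260.2, 266, 275 and 266 CPM in the shYAP1_H2O2 libraries, 172, 169, 176 and 180.0 CPM in the shNC_H2O2 libraries, and 249.7, 241, 252 and 311 CPM in the shNC libraries. The shNC_H2O2 libraries lay below all others and the other groups overlapped, with shNC replicate 4 the highest. FNDC3B, a membrane protein of the endoplasmic reticulum (ER) with fibronectin type III repeats, had 207, 205, 222 and 206 CPM in the shYAP1_H2O2 libraries, 135, 135, 134 and 142 CPM in the shNC_H2O2 libraries, and 197, 189, 197 and 237 CPM in the shNC libraries. MGLL, the lipase that cleaves monoacylglycerols, had 301, 329, 341 and 313 CPM in the shYAP1_H2O2 libraries, 196, 203, 214 and 201 CPM in the shNC_H2O2 libraries, and 316, 321, 337 and 282 CPM in the shNC libraries. Log2 fold changes in shNC_H2O2 over shNC were -0.59 ± 0.07 (SE) for U2SURP, -0.59 ± 0.07 for FNDC3B and -0.63 ± 0.06 for MGLL, and in shYAP1_H2O2 over shNC_H2O2 they were 0.61 ± 0.07, 0.62 ± 0.07 and 0.66 ± 0.06. CCNL1, a cyclin of the splicing machinery, and SMC4, a core subunit of condensin, followed the block at -0.56 ± 0.06 and -0.60 ± 0.09 in shNC_H2O2 over shNC, and also fell in shYAP1_H2O2 over shNC, by 0.23 ± 0.06 for CCNL1 (edgeR adjusted p = 0.00771) and by 0.41 ± 0.09 for SMC4 (edgeR adjusted p = 0.00355). SMC4 had 163, 166, 203 and 163 CPM in the shYAP1_H2O2 libraries, 149, 140.2, 161 and 155 CPM in the shNC_H2O2 libraries, and 217, 209.8, 218 and 277 CPM in the shNC libraries. Its value is uncertain, since 25.6% of its exon bases lie in other genes and the strand setting of the counts is not given in the sources used here. The same doubt, set at over 20% of exon bases, holds for 14 of the 215 genes, among them PIK3CA, STAG1, PCCB and IFT80.

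Of the 215 genes, NMNAT3 (ENSG00000163864, 139560180 to 139678017 on the minus strand) stood furthest below. It encodes a mitochondrial enzyme that makes nicotinamide adenine dinucleotide (NAD). The lowest of the genes left out by name stood lower still, at -5.7 in shNC_H2O2 over shNC. NMNAT3 had 13.6, 14.4, 16.1 and 12.5 CPM in the shYAP1_H2O2 libraries, 2.51, 2.14, 2.66 and 2.09 CPM in the shNC_H2O2 libraries, and 22.3, 22.4, 21.5 and 22.8 CPM in the shNC libraries. No libraries of any group overlapped, with means of 14.2 ± 1.53 CPM in shYAP1_H2O2, 2.35 ± 0.28 CPM in shNC_H2O2 and 22.2 ± 0.558 CPM in shNC (SD, n = 4 each). The log2 fold change was -3.25 ± 0.11 in shNC_H2O2 over shNC and 2.59 ± 0.11 in shYAP1_H2O2 over shNC_H2O2. The level in shYAP1_H2O2 was below that of untreated cells, with a log2 fold change of -0.65 ± 0.09 (edgeR quasi-likelihood test, Benjamini-Hochberg adjusted p = 7.34e-05).

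At the other end stood BCHE (ENSG00000114200, 165772904 to 165837472 on the minus strand), butyrylcholinesterase, a secreted enzyme that hydrolyses choline esters. BCHE had 31.2, 30.2, 31.2 and 33.1 CPM in the shYAP1_H2O2 libraries, 55.5, 54.1, 50.3 and 60.8 CPM in the shNC_H2O2 libraries, and 19.02, 17.4, 18.1 and 13.7 CPM in the shNC libraries. Here too no groups overlapped, with shNC_H2O2 the highest. The log2 fold change was 1.69 ± 0.10 in shNC_H2O2 over shNC and -0.81 ± 0.09 in shYAP1_H2O2 over shNC_H2O2, and in shYAP1_H2O2 over shNC BCHE rose by 0.88 ± 0.09 (edgeR adjusted p = 3.86e-06).

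The promoter windows of NMNAT3, U2SURP and BCHE are shown for comparison of the sequence at which each is transcribed. These are the lowest, a typical and the highest of the 215 genes. Each runs from 250 bases before to 50 bases after the start in RefSeq (GRCh38.p14), 5′ to 3′ on the gene's strand, and capitals mark matches to the motifs searched on both strands. These were TGANTCA, the site of AP-1, GGAATG, the site of TEAD factors through which YAP1 acts, and TGACNNNGC, the antioxidant response element, and matches to the first and the third may overlap. The NMNAT3 window is chr3:139677923-139678222 on the minus strand, that of U2SURP chr3:143001320-143001619 on the plus strand and that of BCHE chr3:165837374-165837673 on the minus strand. The RefSeq start of U2SURP lies within the GENCODE gene given above.
NMNAT3: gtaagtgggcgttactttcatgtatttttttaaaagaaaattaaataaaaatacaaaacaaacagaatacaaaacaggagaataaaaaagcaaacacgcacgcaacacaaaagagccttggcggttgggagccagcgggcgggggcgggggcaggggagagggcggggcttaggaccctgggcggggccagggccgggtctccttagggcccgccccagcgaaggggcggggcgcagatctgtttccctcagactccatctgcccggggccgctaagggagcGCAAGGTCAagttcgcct
U2SURP: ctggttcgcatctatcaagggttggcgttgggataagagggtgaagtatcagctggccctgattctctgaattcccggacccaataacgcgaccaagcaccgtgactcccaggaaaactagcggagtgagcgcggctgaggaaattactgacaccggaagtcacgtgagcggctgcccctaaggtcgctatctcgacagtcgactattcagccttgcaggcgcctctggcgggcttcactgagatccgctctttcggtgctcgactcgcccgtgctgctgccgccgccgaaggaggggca
BCHE: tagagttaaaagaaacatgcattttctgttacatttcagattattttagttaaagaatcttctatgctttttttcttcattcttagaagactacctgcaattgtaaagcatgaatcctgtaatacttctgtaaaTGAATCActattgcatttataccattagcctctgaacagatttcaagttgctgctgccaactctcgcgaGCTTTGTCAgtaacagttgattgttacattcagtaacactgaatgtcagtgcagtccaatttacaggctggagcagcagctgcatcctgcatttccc
The NMNAT3 window held 1 match, to the antioxidant element on the opposite strand, 18 CpG dinucleotides and 56.3% G and C. The U2SURP window held no match to any of the 3 motifs, 25 CpG dinucleotides and 59.3% G and C. The BCHE window held 1 match to the AP-1 site and 1 to the antioxidant element on the opposite strand, with 2 CpG dinucleotides and 36.7% G and C. BCHE thus had by far the fewest CpG dinucleotides of these, against a median of 26 over the 197 of the 215 genes with a window and 27 over 7841 other protein-coding genes of at least 10 CPM. The medians by class were close, at 24.5 for genes further below, 27 for followers and 25 for escaped genes. The low count of BCHE was thus not shared by the escaped genes as a class. HGD and SLCO2A1 are the next lowest and next highest genes.

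Across the 197 windows, the shares with a motif were near those of other genes. The AP-1 site was found in 3.05% of them, against 4.03% of the other protein-coding genes and 7.71% of all 35116 windows in the table. The TEAD site was found in 13.7%, against 10.5% and 14.0%, and the antioxidant element in 14.2%, against 15.5% and 13.3%. By class the TEAD site was in 11 of 44 windows of genes further below, 11 of 112 of followers and 5 of 41 of escaped genes. The AP-1 site was in none of the 44, in 3 of the 112 and in 3 of the 41. These counts are small, and a match is a run of letters, not an observed binding site.

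**Figure D4:**
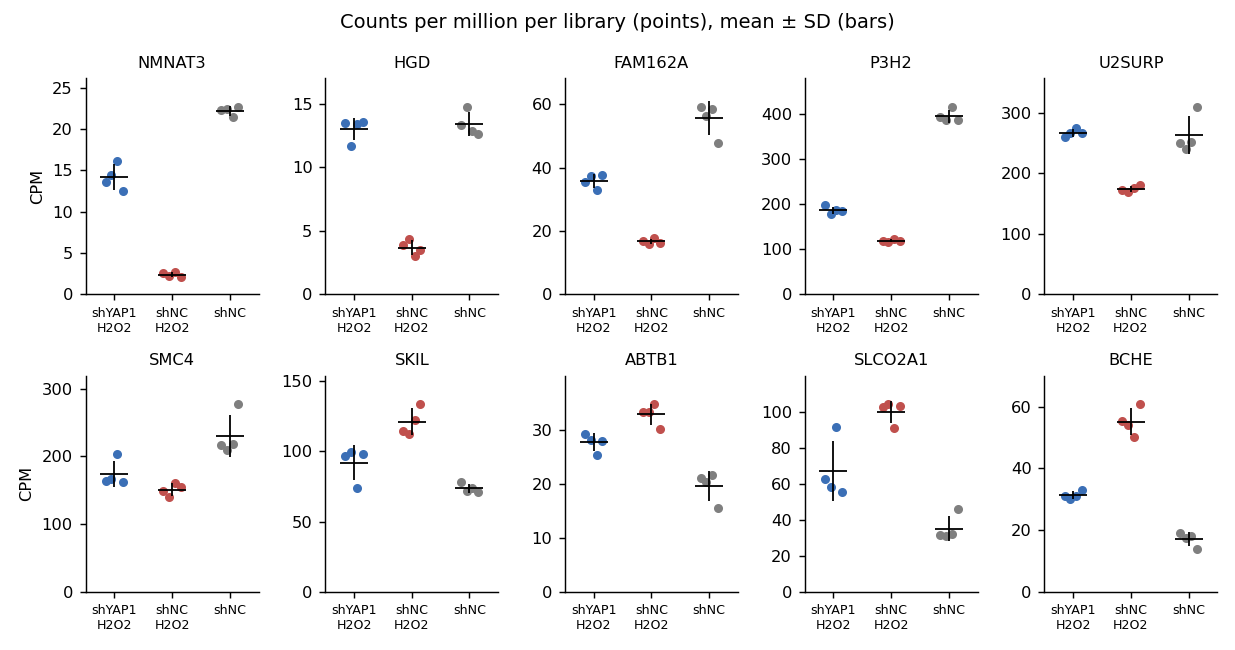
CPM in each library (points) with mean ± SD (bars, n = 4) for the 4 lowest and 4 highest of the 215 genes by log2 fold change in shNC_H2O2 over shNC, and for U2SURP and SMC4, which followed the block. NMNAT3 ranges from 2.09 CPM in shNC_H2O2 to 22.8 CPM in shNC, and BCHE from 13.7 CPM in shNC to 60.8 CPM in shNC_H2O2.

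The genes of ER translocation, folding and glycosylation had the lowest median of the role lists, a difference that was not tested. Of 24 listed, 22 were among the 215, with a median log2 fold change in shNC_H2O2 over shNC of -0.74, beside -0.59 for all 215. Of these 22, 9 followed, 9 stood further below and 4 escaped. P3H2 (ENSG00000090530, 189956728 to 190122437 on the minus strand), which hydroxylates proline in collagen IV, had 198, 177, 186 and 185 CPM in the shYAP1_H2O2 libraries, 119, 116, 122 and 119 CPM in the shNC_H2O2 libraries, and 394, 387, 417 and 387 CPM in the shNC libraries. All groups were apart, and shYAP1_H2O2 stayed nearer to shNC_H2O2 than to shNC. P3H2 had a log2 fold change of -1.74 ± 0.06 in shNC_H2O2 over shNC and fell by 1.09 ± 0.05 in shYAP1_H2O2 over shNC (edgeR adjusted p = 1.61e-09). PLOD2, a lysyl hydroxylase that prepares collagen for cross-linking, had 197, 182, 224 and 205 CPM in the shYAP1_H2O2 libraries, 109, 108, 107 and 112 CPM in the shNC_H2O2 libraries, and 282, 258, 278 and 359 CPM in the shNC libraries. It fell by 0.54 ± 0.09 in shYAP1_H2O2 over shNC (edgeR adjusted p = 0.000263). The list's highest member was TMEM41A, at 0.11 ± 0.07 in shNC_H2O2 over shNC. Of the 22 genes, 4 rose and 8 fell in shYAP1_H2O2 over shNC by the edgeR test, where 17.4% of all genes tested rose and 15.1% fell, and 24.3% and 17.9% of the other protein-coding genes of at least 10 CPM.

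Mitochondrial and metabolic enzymes held the lowest and the second lowest of the 215 genes. Of 24 listed, 18 were among the 215, with a median of -0.60, and 9 followed, 5 stood further below and 4 escaped. HGD (ENSG00000113924, 120628173 to 120682571 on the minus strand), the dioxygenase that opens the ring of homogentisate in tyrosine breakdown, had 13.5, 11.7, 13.4 and 13.6 CPM in the shYAP1_H2O2 libraries, 3.86, 4.33, 3.01 and 3.44 CPM in the shNC_H2O2 libraries, and 13.3, 14.8, 12.8 and 12.6 CPM in the shNC libraries. The shNC_H2O2 libraries were all under 5 CPM, and the other groups overlapped, with adjusted p = 0.828 in shYAP1_H2O2 over shNC by edgeR. OPA1, which fuses the inner mitochondrial membrane, stood at -0.50 ± 0.06 in shNC_H2O2 over shNC. NUDT16, a nucleotide hydrolase, escaped, with 43.3, 42.2, 38.9 and 41.98 CPM in the shYAP1_H2O2 libraries, 34.5, 33.7, 33.0 and 32.6 CPM in the shNC_H2O2 libraries, and 33.01, 34.2, 32.7 and 29.03 CPM in the shNC libraries. Its shNC_H2O2 and shNC libraries overlapped, and in shYAP1_H2O2 over shNC it rose by 0.37 ± 0.07 (edgeR adjusted p = 0.000626). GYG1, the protein that primes glycogen, followed the block at -0.42 ± 0.07 in shNC_H2O2 over shNC and rose by 0.68 ± 0.07 in shYAP1_H2O2 over shNC (edgeR adjusted p = 2.28e-06). FAM162A, a mitochondrial protein induced by hypoxia that was in no role list, had 35.5, 37.5, 32.8 and 37.6 CPM in the shYAP1_H2O2 libraries, 16.7, 15.9, 17.8 and 16.2 CPM in the shNC_H2O2 libraries, and 59.3, 56.5, 58.7 and 47.7 CPM in the shNC libraries. The 3 groups did not overlap, and in shYAP1_H2O2 over shNC FAM162A fell by 0.63 ± 0.08 (edgeR adjusted p = 1.92e-05).

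Among kinases, lipid kinases and GTPases of signalling, 27 of 32 listed genes were members, with a median of -0.60 in shNC_H2O2 over shNC. Of these 15 followed, 7 stood further below and 5 escaped. MYLK, which phosphorylates the myosin light chain in contraction, had 182, 190.3, 191 and 183 CPM in the shYAP1_H2O2 libraries, 138, 139, 149 and 141 CPM in the shNC_H2O2 libraries, and 364, 360.4, 368 and 389 CPM in the shNC libraries. Each group was apart from the others. MYLK stood at -1.38 ± 0.05 in shNC_H2O2 over shNC and fell by 0.99 ± 0.05 in shYAP1_H2O2 over shNC (edgeR adjusted p = 3.26e-09), so that shYAP1_H2O2 was nearer to shNC_H2O2 than to shNC. PLD1, a phospholipase that makes phosphatidic acid, had the lowest value of the list, -1.47 ± 0.07 in shNC_H2O2 over shNC. PIK3CA, the catalytic subunit of a phosphatidylinositol 3-kinase, had 52.6, 51.6, 50.7 and 55.7 CPM in the shYAP1_H2O2 libraries, 38.3, 37.4, 38.7 and 40.95 CPM in the shNC_H2O2 libraries, and 48.3, 49.3, 50.1 and 55.99 CPM in the shNC libraries. Its shNC_H2O2 libraries lay below all others, at -0.39 ± 0.07 over shNC, with 35.8% of its exon bases lying in KCNMB3. PRKCI, an atypical protein kinase C of cell polarity, and PAK2, a kinase downstream of Rac and Cdc42, followed with -0.54 ± 0.11 and -0.68 ± 0.07 in shNC_H2O2 over shNC. DLG1, a polarity scaffold at cell junctions, had 393, 404, 384 and 392 CPM in the shYAP1_H2O2 libraries, 185, 189.8, 185 and 188 CPM in the shNC_H2O2 libraries, and 242, 239.6, 246 and 294 CPM in the shNC libraries. It followed in shNC_H2O2 over shNC (-0.45 ± 0.07) and, with shYAP1_H2O2 above both other groups, rose by 0.62 ± 0.07 in shYAP1_H2O2 over shNC (edgeR adjusted p = 3.01e-06). AMOTL2, an angiomotin family protein that binds YAP1, stood at -0.64 ± 0.05 in shNC_H2O2 over shNC and rose by 0.27 ± 0.05 in shYAP1_H2O2 over shNC (edgeR adjusted p = 0.00143). EPHB1, an ephrin receptor tyrosine kinase, escaped, with 15.2, 15.3, 12.5 and 13.6 CPM in the shYAP1_H2O2 libraries, 18.4, 17.2, 21.1 and 18.6 CPM in the shNC_H2O2 libraries, and 13.3, 14.6, 15.3 and 10.7 CPM in the shNC libraries. All 4 of its shNC_H2O2 libraries lay above those of both other groups, at 0.48 ± 0.11 over shNC. ARHGEF26, an exchange factor for RhoG, stood at 0.36 ± 0.09 and TNK2, a non-receptor tyrosine kinase, at 0.28 ± 0.11 in the same contrast, where the TNK2 libraries overlapped.

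The transcription and chromatin list held 23 members of 32, with a median of -0.60 in shNC_H2O2 over shNC, and 16 followed, 5 stood further below and 2 escaped. TBL1XR1, a subunit of the NCoR and SMRT corepressor complexes, was lowest, with 254, 272, 219 and 260.0 CPM in the shYAP1_H2O2 libraries, 152, 148, 155 and 160.4 CPM in the shNC_H2O2 libraries, and 344, 346, 322 and 397 CPM in the shNC libraries. SKIL (ENSG00000136603, 170357678 to 170396835 on the plus strand), which represses SMAD-dependent transcription downstream of TGF-beta, was highest, with 96.8, 99.5, 73.6 and 97.8 CPM in the shYAP1_H2O2 libraries, 115, 113, 123 and 134 CPM in the shNC_H2O2 libraries, and 78.1, 72.01, 73.96 and 70.7 CPM in the shNC libraries. All 4 shNC_H2O2 libraries of SKIL lay above every other library, and shYAP1_H2O2 replicate 3 stood apart from its group at the level of shNC. SKIL stood at 0.71 ± 0.09 in shNC_H2O2 over shNC and rose by 0.32 ± 0.09 in shYAP1_H2O2 over shNC (edgeR adjusted p = 0.0119).

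Among the lists with 15 or more members, RNA processing and translation factors followed the block most often. All 23 listed genes were members, with a median of -0.56 in shNC_H2O2 over shNC, and 18 followed, none stood further below and 5 escaped. EIF4G1, the scaffold of the cap-binding complex, had 495, 486, 521 and 480.2 CPM in the shYAP1_H2O2 libraries, 305, 305, 299.8 and 299 CPM in the shNC_H2O2 libraries, and 445, 448, 458 and 361 CPM in the shNC libraries. Its partner helicase EIF4A2, further along the arm, had 602, 644, 419 and 629 CPM in the shYAP1_H2O2 libraries, 414, 399.8, 444 and 419 CPM in the shNC_H2O2 libraries, and 432, 405, 448 and 387 CPM in the shNC libraries. EIF4G1 was lower in all 4 shNC_H2O2 libraries than in any shNC library, while EIF4A2 overlapped, with log2 fold changes of -0.50 ± 0.07 and 0.00 ± 0.11 in shNC_H2O2 over shNC. EIF4A2 rose by 0.46 ± 0.11 in shYAP1_H2O2 over shNC (edgeR adjusted p = 0.00386), with shYAP1_H2O2 replicate 3 far below the other 3. FXR1, an RNA-binding relative of the fragile X protein, followed at -0.66 ± 0.07, and EIF2A, a factor that delivers initiator tRNA, stood lowest in the list at -0.85 ± 0.10. TRA2B, a splicing activator, had 171, 149, 180.2 and 168 CPM in the shYAP1_H2O2 libraries, 171, 176, 155 and 167 CPM in the shNC_H2O2 libraries, and 258, 250.2, 263 and 307 CPM in the shNC libraries. The shYAP1_H2O2 and shNC_H2O2 libraries of TRA2B overlapped, both below shNC, and it fell by 0.69 ± 0.08 in shYAP1_H2O2 over shNC (edgeR adjusted p = 5.59e-06). EIF5A2, a homologue of the translation factor EIF5A, was the highest of the list at 0.08 ± 0.11 in shNC_H2O2 over shNC. By the edgeR test, 7 of the 23 rose and 2 fell in shYAP1_H2O2 over shNC, beside 17.4% and 15.1% of all genes tested and 24.3% and 17.9% of the other protein-coding genes of at least 10 CPM.

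Of 23 listed vesicle, endosome and lysosome genes, 19 were members, with a median of -0.60 in shNC_H2O2 over shNC, and 9 followed, 4 stood further below and 6 escaped. ATP13A3, a transporter of polyamines, stood lowest at -1.21 ± 0.08, with AP2M1, a subunit of the clathrin adaptor AP-2, at -0.90 ± 0.06 and RAB7A, the GTPase of late endosomes, at -0.95 ± 0.15. RAB7A had 294, 287, 435 and 299.6 CPM in the shYAP1_H2O2 libraries, 163, 165, 167 and 166 CPM in the shNC_H2O2 libraries, and 282, 283, 281 and 433 CPM in the shNC libraries. The higher libraries of RAB7A, shYAP1_H2O2 replicate 3 and shNC replicate 4, are those with the high mitochondrial share, and its value in shNC_H2O2 over shNC was -0.78 when both were left out. ACAP2, which inactivates the GTPase ARF6, had 114, 127, 80.03 and 122 CPM in the shYAP1_H2O2 libraries, 63.9, 63.8, 67.1 and 69.4 CPM in the shNC_H2O2 libraries, and 69.7, 71.2, 70.7 and 63.5 CPM in the shNC libraries. Its shNC_H2O2 and shNC libraries overlapped, and it rose by 0.69 ± 0.11 in shYAP1_H2O2 over shNC (edgeR adjusted p = 0.000184). RUBCN, an inhibitor of autophagosome maturation, and VPS8, a subunit of an endosomal tethering complex, stood at 0.03 ± 0.08 and 0.10 ± 0.07 in shNC_H2O2 over shNC. RUBCN rose by 0.71 ± 0.08 (edgeR adjusted p = 9.34e-06) and VPS8 by 0.42 ± 0.07 (edgeR adjusted p = 0.000155) in shYAP1_H2O2 over shNC.

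Cell surface genes ran from MELTF, at -1.40 ± 0.09 in shNC_H2O2 over shNC, to SLCO2A1, the second highest of all 215. Of 36 listed, 17 were members, with a median of -0.67 in shNC_H2O2 over shNC, and 8 followed, 5 stood further below and 4 escaped. SLCO2A1 (ENSG00000174640, 133928145 to 134052184 on the minus strand), the prostaglandin transporter, had 62.5, 58.4, 91.7 and 55.6 CPM in the shYAP1_H2O2 libraries, 103, 104, 91.1 and 103 CPM in the shNC_H2O2 libraries, and 31.6, 30.8, 32.1 and 45.8 CPM in the shNC libraries. The shNC_H2O2 and shNC libraries did not overlap, and shYAP1_H2O2 replicate 3 and shNC replicate 4 were the highest of their groups. SLCO2A1 stood at 1.52 ± 0.16 in shNC_H2O2 over shNC and rose by 0.93 ± 0.16 in shYAP1_H2O2 over shNC (edgeR adjusted p = 0.000398). PLXNA1 and PLXND1, receptors for semaphorins, stood at 0.44 ± 0.09 and 0.30 ± 0.08 in shNC_H2O2 over shNC, with no overlap of these groups for either. MELTF, an iron-binding protein anchored in the plasma membrane, had 106, 97.99, 104 and 102 CPM in the shYAP1_H2O2 libraries, 68.1, 68.7, 58.7 and 62.4 CPM in the shNC_H2O2 libraries, and 182, 186, 178 and 137 CPM in the shNC libraries. The 3 groups of MELTF were apart, and it fell by 0.74 ± 0.09 in shYAP1_H2O2 over shNC (edgeR adjusted p = 1.15e-05). TM4SF1, a membrane protein of the tetraspan type, stood at -1.35 ± 0.11 and ATP1B3, a beta subunit of the sodium pump, at -0.79 ± 0.09 in shNC_H2O2 over shNC. CLDN11, a claudin of tight junctions, had 66.3, 76.7, 80.2 and 74.8 CPM in the shYAP1_H2O2 libraries, 81.1, 78.4, 83.2 and 84.1 CPM in the shNC_H2O2 libraries, and 119, 122, 118 and 162 CPM in the shNC libraries. Its shYAP1_H2O2 and shNC_H2O2 libraries overlapped below those of shNC, and it fell by 0.80 ± 0.09 in shYAP1_H2O2 over shNC (edgeR adjusted p = 1.01e-05).

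Genes of the cell cycle, DNA repair and the centrosome escaped most often, 7 of 17 members out of 19 listed, while 7 followed and 3 stood further below, with a median of -0.43 in shNC_H2O2 over shNC. The share was not tested. The highest was ZMAT3, an RNA-binding target of p53, with 33.1, 37.3, 32.1 and 34.7 CPM in the shYAP1_H2O2 libraries, 34.03, 33.5, 32.2 and 31.5 CPM in the shNC_H2O2 libraries, and 29.1, 24.2, 25.6 and 31.0 CPM in the shNC libraries. Its shNC_H2O2 libraries lay just above those of shNC, and it stood at 0.26 ± 0.08 over shNC. PARP9, an ADP-ribosyltransferase of DNA repair and the interferon response, was lowest at -1.14 ± 0.13, next to its partner DTX3L, a ubiquitin ligase, at -1.31 ± 0.08. In the ubiquitin and SUMO list, 15 of 17 were members, with a median of -0.52, and 11 followed, 1 stood further below and 3 escaped. KLHL24, a substrate adaptor of a cullin ligase, was its highest member, with 82.9, 93.9, 65.9 and 90.1 CPM in the shYAP1_H2O2 libraries, 60.7, 53.4, 61.5 and 61.4 CPM in the shNC_H2O2 libraries, and 53.7, 49.6, 49.9 and 48.9 CPM in the shNC libraries. Its shNC_H2O2 and shNC libraries overlapped, and KLHL24 rose by 0.72 ± 0.09 in shYAP1_H2O2 over shNC (edgeR adjusted p = 2.75e-05).

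The remaining lists had few members. Of 11 cytoskeleton genes 5 were members, with a median of -0.69 in shNC_H2O2 over shNC, 4 of them followers. PLS1, an actin-bundling plastin of microvilli, was lowest at -1.46 ± 0.12, and -1.29 when shYAP1_H2O2 replicate 3 and shNC replicate 4 were left out. Of 19 secreted and matrix genes 3 were members, FNDC3B, PLSCR1, a phospholipid scramblase, at -0.70 ± 0.07, and BCHE. The other 26 members were in no list, with a median of -0.63, of which 14 followed, 7 stood further below and 5 escaped. ABTB1, an ankyrin repeat and BTB domain protein, was their highest, with 29.3, 28.2, 25.4 and 27.98 CPM in the shYAP1_H2O2 libraries, 33.3, 33.2, 34.8 and 30.2 CPM in the shNC_H2O2 libraries, and 21.01, 20.4, 21.6 and 15.6 CPM in the shNC libraries. No shNC_H2O2 library of ABTB1 overlapped another group, at 0.74 ± 0.10 over shNC. DIPK2A, a protein with a kinase-like domain, stood at -1.61 ± 0.09.

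**Figure D5:**
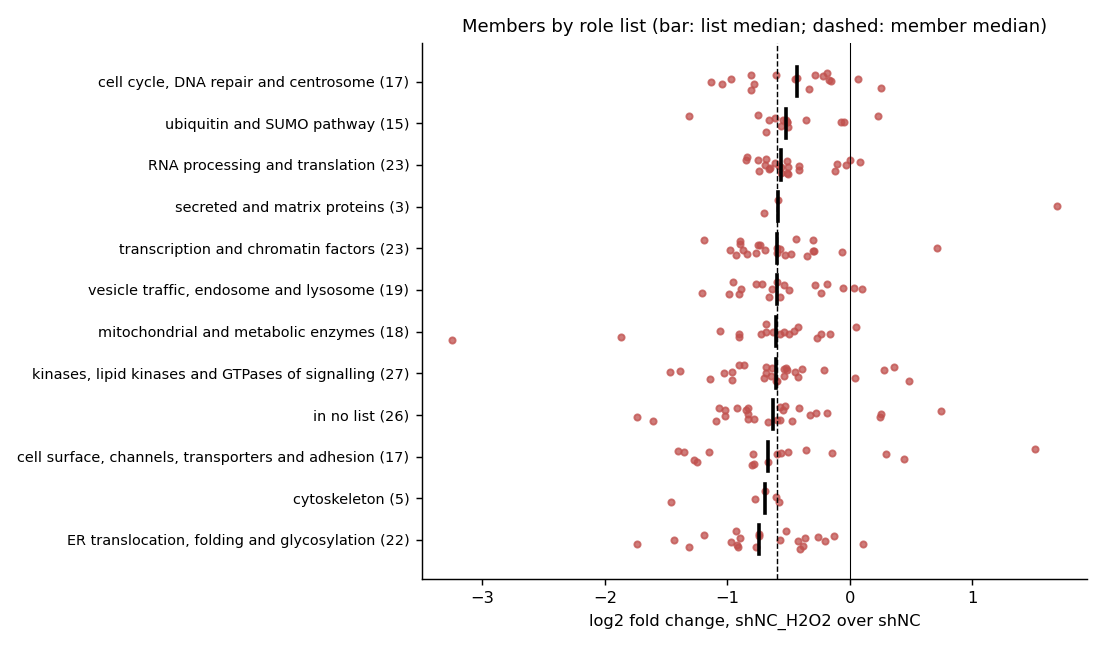
Log2 fold change in shNC_H2O2 over shNC of the 215 genes by role list, with the list median as a bar and the number of members in brackets, and the median over all 215 as the dashed line. List medians run from -0.74 for ER translocation, folding and glycosylation to -0.43 for the cell cycle, DNA repair and centrosome, and each list of 15 or more has members at both sides of the dashed line.

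In shYAP1_H2O2 over shNC, where the shNC_H2O2 libraries stand on neither side, the 215 genes were measured against untreated cells by the edgeR test. The shNC libraries are shared with the contrast that chose the genes, so the test is not wholly free of that choice. The median was 0.01, with 108 values above 0 and 107 below, beside 0.04 for the other protein-coding genes. Of the 215, 45 rose (20.9%) and 45 fell (20.9%), at adjusted p under 0.05. Over all 19268 genes tested, 17.4% rose and 15.1% fell, and over the other protein-coding genes of at least 10 CPM 24.3% and 17.9%. A test that misses the threshold does not show that a gene was at the untreated level. Without shYAP1_H2O2 replicate 3 and shNC replicate 4, 76 genes rose (35.3%) and 65 fell (30.2%), including all of the 45 and 45, and over the 19526 genes then tested 24.0% rose and 22.8% fell. The share over the other protein-coding genes of at least 10 CPM was not computed for this setting, so these shares lack a like comparison.

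Single genes departed from the untreated level in both directions. The largest rises in shYAP1_H2O2 over shNC were those of SLCO2A1, BCHE, KLHL24, RUBCN, ACAP2 and GYG1, between 0.68 and 0.93, and the largest falls those of P3H2, MYLK, CLDN11, MELTF, TRA2B and NMNAT3, between -1.09 and -0.65. The genes that escaped in shNC_H2O2 over shNC had a median of -0.05 there and 0.29 in shYAP1_H2O2 over shNC, followers had -0.59 and -0.01, and genes further below had -1.06 and -0.22. Both contrasts use the same shNC libraries, so these medians are set side by side and not related to each other.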

How the data were processed

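Polyadenylated RNA of HK-2 cells was sequenced in 12 libraries, 4 in each group by their titles. The columns of the shYAP1_H2O2 tables are headed HY where the titles read YH, and the extraction protocol names kidney tissue where the labels name the cell line. The authors deposited raw counts per gene and library, neither scaled nor pooled. HISAT2, featureCounts, Subread and DESeq2 are named, per the submitters' processing notes, with GRCh38. Their versions, the strand setting and the annotation release are not given in the labels. Symbols came from a table of gene names for 40555 identifiers and from GENCODE 29 for 85 more, and GENCODE 29 gave positions for 39306.

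The counts were fitted for all genes with edgeR 4.0.16 under R 4.3.3: filterByExpr by group, TMM factors, robust quasi-likelihood fitting of the 3 group means over all 12 libraries (9 residual degrees of freedom) and Benjamini-Hochberg adjustment over 19268 genes. The fit was tested on simulated data. Log2 fold changes carry the standard error of the fit, the change over the square root of its F statistic. CPM are TMM-scaled. Floors of 3 counts cover counting error only. Every pair of replicates differed by more than sampling noise (chi-square per degree of freedom of 95.84 to 117.8 for pairs with shYAP1_H2O2 replicate 3, 138 to 159.3 with shNC replicate 4 and 2.847 to 6.386 otherwise).

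The genes, the role lists and the tests were chosen with earlier results of these data known. Genes are named by a rule: the 10 highest and 10 lowest in shNC_H2O2 over shNC, the 5 nearest the median at 100 CPM or more, a panel, the extremes of each list, the 6 largest rises and 6 largest falls in shYAP1_H2O2 over shNC, and those at the bound of 10 CPM. FSTL1, of the panel, was not among the 215. Genes named as neighbours in a run, or as sharing exon bases, were added for that reason.

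Alternatives were DESeq2 1.42.0, its size factors, library sizes alone, no filter, a replicate block, each library left out in turn, both libraries of high mitochondrial share left out, and other bounds for members and followers.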

Additional observations from a re-analysis of the deposited data

Results flagged for a closer look

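In 78 groups of 4 libraries (the median of the block and 25 named genes, in each group), 13 had a library apart from the other 3 by Dixon's test at the 95% level, which chance gives in about 1 of 20 groups. Of these, 6 were shNC replicate 4, with MELTF at 136.7 CPM, PLXND1 at 127.3, SLCO2A1 at 45.79, U2SURP at 310.5, FNDC3B at 236.8 and SMC4 at 277.0 CPM. A further 3 were shYAP1_H2O2 replicate 3, with SKIL at 73.63, FNDC3B at 221.9 and SMC4 at 202.9 CPM. These are the libraries with the high mitochondrial share. The others were HGD at 11.7 CPM in shYAP1_H2O2 replicate 2, PLD1 at 21.15 and FNDC3B at 141.7 CPM in shNC_H2O2 replicate 4, and SLCO2A1 at 91.08 CPM in shNC_H2O2 replicate 3. The part of mitochondrial share in these values was not tested.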

How the results depend on the processing

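The values that chose the genes carry no test, so their settings describe the size of the shift only. The median in shYAP1_H2O2 over shNC lay near 0 on either side, between -0.0171 and 0.0582 over all settings, and no called value changed sign. With library sizes alone, the median of all genes in shNC_H2O2 over shNC was 0.087, beside 0.004 with TMM factors. The median of the 215 genes was then -0.51 in shNC_H2O2 over shNC, and 0.55 in shYAP1_H2O2 over shNC_H2O2. With TMM factors from genes outside chromosomes 1, 3, 4 and 21, a setting chosen after seeing the data, these medians were -0.64 and 0.65. Those chromosomes were left out because they were taken to hold shifted stretches, and values for chromosome 4 are not given here. With members from 150 Mb, which leaves 110 genes, the median was -0.53 in shNC_H2O2 over shNC and 0.058 in shYAP1_H2O2 over shNC, with 98 values below 0 in the first and 102 above 0 in shYAP1_H2O2 over shNC_H2O2. Of these 110, 65 followed, 20 stood further below and 25 escaped, and in shYAP1_H2O2 over shNC 28 rose and 19 fell. With a distance of 0.5 in place of 0.3, 21 genes stood further below and 26 escaped. With shYAP1_H2O2 replicate 3 and shNC replicate 4 left out, 76 genes rose in shYAP1_H2O2 over shNC instead of 45.

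With 1 library left out at a time, the median ranged from -0.61 to -0.57 in shNC_H2O2 over shNC, and 39 to 57 genes rose and 34 to 52 fell in shYAP1_H2O2 over shNC. Of 37 named genes called in that contrast, 33 kept the call in all 19 settings of the fit. PLXND1, EIF4G1, TM4SF1 and PARP9 lost it when single libraries of shYAP1_H2O2 were left out, PLXND1 also without shNC replicate 2 or 4 and EIF4G1 also with library sizes alone, with adjusted p of up to 0.0639, 0.0676, 0.062 and 0.0829 by edgeR. The cause was not tested.

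With the replicate block the medians were -0.59, 0.61 and 0.01, and 43 genes rose and 40 fell in shYAP1_H2O2 over shNC. Same-numbered libraries of shNC_H2O2 and shNC had correlations of deviations between -0.000364 and 0.0145. Those of shYAP1_H2O2 and shNC_H2O2 lay between -0.0307 and 0.0145, and those of shYAP1_H2O2 and shNC were 0.0903, 0.103, -0.207 and -0.222. No steady effect shared by replicate number was thus seen, which cannot show whether same-numbered libraries were made together. The block changed no other result beyond 1.5 times.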
